A study of Capra hircus with 2 samples.

Results

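The miR-34 and miR-449 miRNAs were measured in the mammary gland of dairy goats in early involution and in early lactation. The members were miR-34a, miR-34b, miR-34c and miR-449a, 4 of the 264 miRNA genes that RefSeq lists for the goat. Tags of 18 nt or more were assigned to a member if they matched its mature sequence up to base 18, lacked no more than 2 bases at the start and ran no more than 3 nt past its end. The involution library came from glands on day 5 after forced weaning at late lactation, which was day 218 after parturition. The lactation library came from glands on day 10 after parturition. For each stage the RNA of 5 goats was pooled in equal parts into 1 library. No treatment other than weaning, no breed and no age is stated in the labels used here. With 1 library a stage there was no replicate, the spread between goats is unknown, and no test between the stages was possible. Weaning and the time since parturition cannot be told apart in this design. In pooled tissue, fewer cells of a type and less RNA per cell cannot be told apart either.

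The miR-34 miRNAs are known, in human and mouse cells, to repress mRNAs for cyclins, cyclin-dependent kinases, MET and the survival factor BCL2, so that they act in cell cycle arrest and cell death. In mammals miR-34a has its own gene, miR-34b and miR-34c are cut from a shared transcript, and the miR-449 genes, which lie within CDC20B, are known from multiciliated epithelium. In the goat RefSeq table of assembly ARS1.2, MIR34C and MIR34B are direct neighbours and MIR449C, MIR449B and MIR449A follow each other inside CDC20B.

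The mature sequences are shown because the shared seed defines the family and the bases after it tell the members apart. They were read from the deposited tags, as the tag of the usual length with the most reads over both libraries for each start. Capitals mark the seed, bases 2 to 8 counted from the 5′ end.
miR-34a: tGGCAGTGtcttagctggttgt
miR-34b: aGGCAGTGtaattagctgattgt
miR-34c: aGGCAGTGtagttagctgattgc
miR-449a: tGGCAGTGtattgttagctggt

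All 4 members carried the same seed. Over the first 18 bases miR-34a differed from miR-34c at 8 positions and from miR-449a at 6. The pair miR-34b and miR-34c differed there at 1 position, G11A from miR-34c to miR-34b, and over the whole 23 nt also by C23T at the last base. Most tags with this seed in these libraries belonged to the family. Of tags with the seed at bases 2 to 8, 83.9% in involution (385 of 459, 95% Clopper-Pearson interval 80.2 to 87.1%) and 91.2% in lactation (812 of 890, 89.2 to 93.0%) were tags of the 4 members.

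The involution library held 7385833 clean tags and the lactation library 18031615, so lactation was 2.44 times deeper. A count of 0 allows up to 3 tags, which is 0.406 tags per 1000000 clean tags (TPM) in involution and 0.166 in lactation. Tags of 22 to 24 nt made up 53.3% of the involution library and 63.5% of the lactation library. Per the authors' filtering logs, 14.0% of high-quality reads were removed as 5′ adaptor contaminants in involution and 0.0505% in lactation. The part of this difference in the results was not tested. Intervals are 95% intervals and cover counting error only, since PCR copies were not marked.

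Within the family, miR-34a was the most abundant member in involution and miR-34c in lactation. The order in involution rests on miR-34a tags of all lengths: among tags identical to the mature sequences, miR-34a had 95 and miR-34c 89 in involution, and the intervals of their shares of the family, 49.7% (42.4 to 57.0%) and 46.6% (39.4 to 53.9%), overlapped. The level of miR-34a was 37.8 TPM (279 tags, exact Poisson interval 33.5 to 42.5) in involution, against 11.04 in lactation (199 tags, 9.56 to 12.7). Its involution level was 3.42 times its lactation level (conditional exact interval 2.84 to 4.13). The level of miR-34c was 12.998 TPM in involution (96 tags, 10.5 to 15.9) and 33.9 in lactation (611 tags, 31.3 to 36.7). This was 2.61-fold lower in involution (2.10 to 3.27). The counting intervals of the stages lay apart for both miRNAs, in opposite directions.

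The other pair was close to the detection limit of both libraries. A total of 7 tags of miR-34b was found in involution, or 0.948 TPM (0.381 to 1.95), and 2 in lactation, or 0.111 (0.0134 to 0.401). The ratio of 8.54 therefore had an interval of 1.63 to 84.3. For miR-449a there were 5 tags in involution, or 0.677 TPM (0.220 to 1.58), and 2 in lactation, or 0.111 (0.0134 to 0.401), and the interval of its ratio of 6.10 ran from 0.999 to 64.1. In involution the levels ran miR-34a, miR-34c, miR-34b, miR-449a, and in lactation miR-34c, miR-34a, then miR-34b and miR-449a at an equal count. The intervals of miR-34b and miR-449a overlapped in each stage, while those of miR-34a and miR-34c, over all their tags, lay apart in each.

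**Figure D1:**
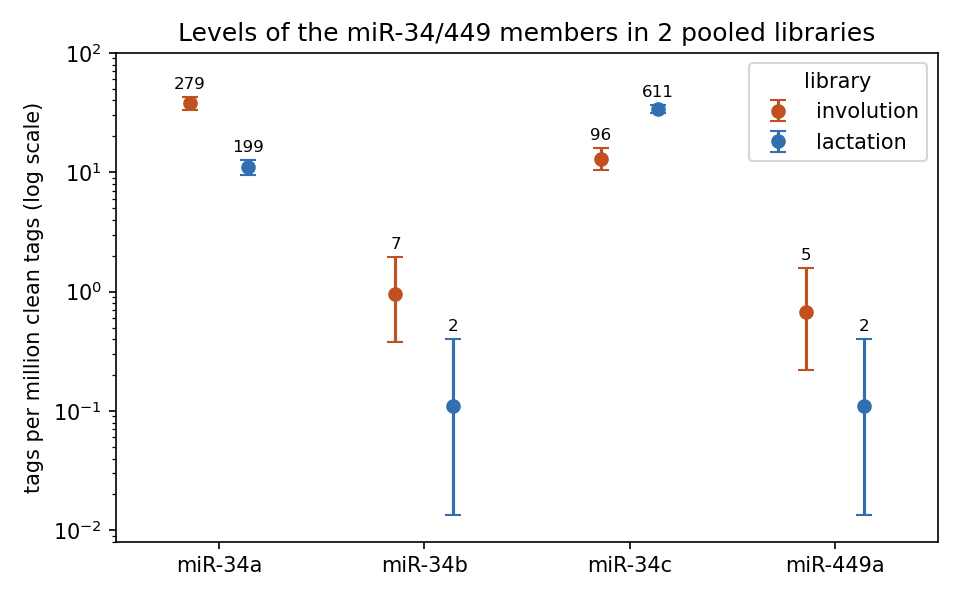
Levels of the 4 members in tags per 1000000 clean tags on a log axis, with involution to the left of lactation; points are the single pooled library of each stage, bars the 95% exact Poisson interval and numbers the tags counted. The positions of miR-34a (37.8 in involution, 11.04 in lactation) and miR-34c (12.998 in involution, 33.9 in lactation) are in opposite order in the stages, and miR-34b and miR-449a stay under 1 TPM.

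The summed level of the seed family differed little. All 4 members together had 52.4 TPM in involution (387 tags, 47.3 to 57.9) and 45.1 in lactation (814 tags, 42.1 to 48.4), a ratio of 1.16 (1.03 to 1.31). The direction of that sum depended on the scaling: it was 0.799 with median-of-ratios factors and 0.806 with TMM factors. Both correct for a shift of the tag groups between the libraries, the former by the median and TMM by a trimmed mean.

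The make-up of the family differed instead, and this comparison does not depend on the scaling. Of the family tags miR-34a made up 72.1% in involution (67.3 to 76.5%) and 24.4% in lactation (21.5 to 27.6%). The share of miR-34c was 24.8% in involution (20.6 to 29.4%) and 75.1% in lactation (71.9 to 78.0%). Together miR-34b and miR-449a held the remainder, 1.81% and 1.29% in involution and 0.246% each in lactation. There were 2.91 tags of miR-34a for each tag of miR-34c in involution, and 0.326 in lactation. The conditional odds ratio between the stages, an estimate that can differ slightly from the plain quotient, was 8.90 (conditional exact interval 6.67 to 11.96). Among tags of 23 nt alone, miR-34a and miR-34c had 105 and 90 tags in involution and 43 and 601 in lactation. The conditional odds ratio was then 16.2 (10.5 to 25.4). At 23 nt miR-34a is longer than its mature sequence. Of tags from the first base, this length held 37.9% for miR-34a in involution and 21.8% in lactation. For miR-34c it held 93.8% in involution and 98.4% in lactation. The value of 16.2 thus also holds the difference in miR-34a tag length between the stages. With identical tags alone, miR-34a made up 49.7% of the family in involution and 8.66% in lactation, and miR-34c 46.6% in involution and 91.2% in lactation.

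**Figure D2:**
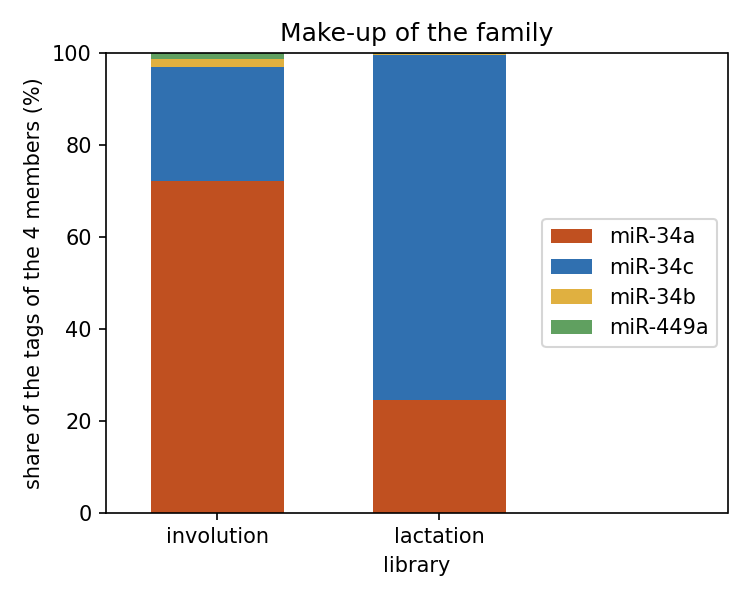
Share of each member in the tags of the 4 members, in percent, for involution (387 tags) and lactation (814 tags), 1 pooled library each. The miR-34a part is 72.1% in involution and 24.4% in lactation, and miR-34c takes most of the rest.

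In involution the goat form of miR-34b was identified by its own sequence. A search for the start of the human form of miR-34b gave 0 tags in involution and 0 in lactation. That search finds tags with the whole human start alone. Tags that begin 1 base earlier but differ from that start at another base would be missed. It therefore does not settle where goat miR-34b begins. In involution 6 of the 7 miR-34b tags were identical to the sequence shown above, so they departed from miR-34c at both G11A and C23T. In lactation neither of the 2 tags was identical to it: 1 ended like miR-34c and 1 was a base shorter. Tags 1 substitution away from the first 18 bases of miR-34c, without miR-34b itself, numbered 0 in involution and 12 in lactation, where they come to 0.226 tags for each of the 53 possible substitutions (upper bound 0.396). The commonest of these was A14C, with 5 tags. The 2 lactation tags of miR-34b stand beside this mean of 0.226 and the 5 tags of A14C. Both departed from miR-34c at G11A alone, so they cannot be told from tags of miR-34c with 1 substitution.

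By the starts searched, opposite arms and close relatives were rare. The 3p arm of miR-34a was found with 6 tags in involution, or 0.812 TPM (0.298 to 1.77), and none in lactation, where a count of 0 allows up to 0.166 TPM. The start searched for this arm was adapted to the tags after these had been seen, and tags that began earlier were not counted. The counts and the limit therefore hold for this start alone. The commonest tag with this start is shown with its bases 2 to 8 in capitals, because these differ from the seed of the 5p arm.
miR-34a-3p: aATCAGCAagtatactgcccta
The 3p arm of miR-34c had 2 tags in involution and 0 in lactation, although the lactation library held 611 tags of its 5p arm. The starts searched for the 3p arms of miR-34b and miR-449a gave no tag. The relatives miR-449b and miR-449c had 0 tags in involution and 1 tag each in lactation. Of the markers of multiciliated epithelium, miR-449a, miR-449b, miR-449c and miR-34b were thus at or near 0 in both libraries, and miR-34c was not.

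The ends of the tags differed between the members more than the starts did. A shifted start would change the seed, and starts that lacked bases were rare. Of miR-34a tags 2 of 279 in involution lacked 2 bases and 2 of 199 in lactation lacked 1. No miR-34c tag lacked either (0 of 96 in involution and 0 of 611 in lactation). Tags that began earlier fell outside the counting rule and are not in these counts. There were 4 of miR-34a in involution, and 1 each of miR-34a and miR-34c in lactation. At the 3′ end miR-34c was nearly uniform. Tags identical to its 23 nt sequence made up 92.7% in involution (85.6 to 97.0%) and 96.6% in lactation (94.8 to 97.9%). By contrast miR-34a tags ran mainly from 22 to 24 nt. Tags that began at its first base were identical to the 22 nt sequence in 34.3% of cases in involution (28.7 to 40.2%) and 28.4% in lactation (22.2 to 35.3%), and longer in 60.6% in involution (54.6 to 66.4%) and 56.9% in lactation (49.6 to 63.9%).

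**Figure D3:**
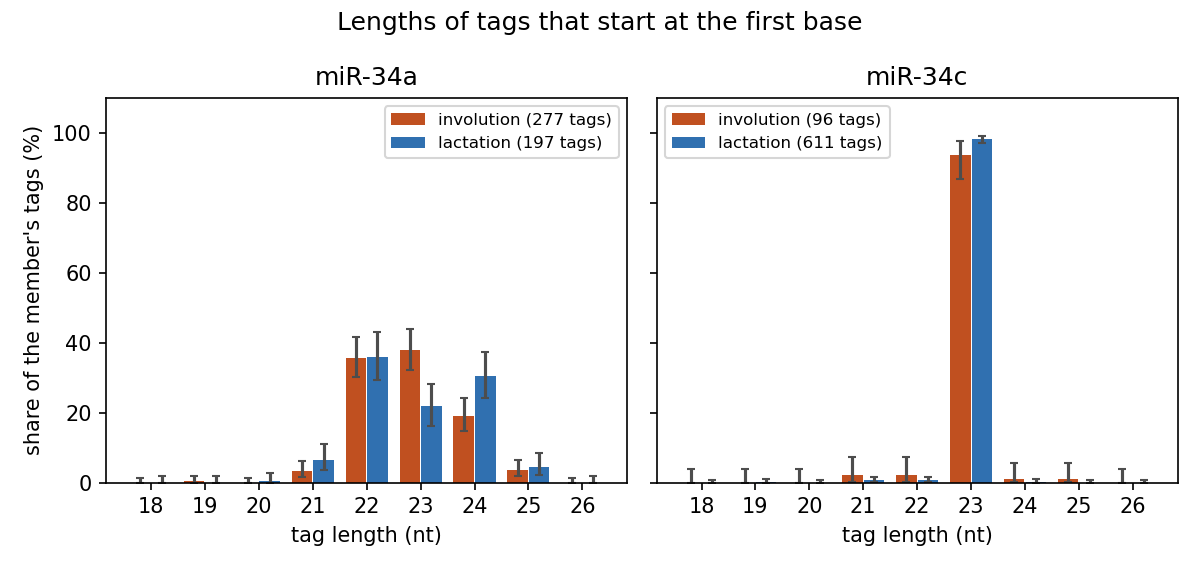
Share of a member's tags at each length, in percent of the tags that start at the first base, for miR-34a and miR-34c with involution left of lactation; bars show the 95% Clopper-Pearson interval. Nearly all miR-34c tags have 23 nt (93.8% in involution and 98.4% in lactation), whereas miR-34a is spread over 22 to 24 nt, with 23 nt at 37.9% in involution and 21.8% in lactation.

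Although the share of longer miR-34a tags was similar, the bases added at its end were not. The forms below are shown because their shares differed between the stages, though for T added again the intervals overlapped. That form had 11.9% in involution (8.34 to 16.3%) and 4.57% in lactation (2.11 to 8.50%). Capitals mark the bases that depart from the mature sequence.
one T added: tggcagtgtcttagctggttgtT
T added again: tggcagtgtcttagctggttgtTT
A added: tggcagtgtcttagctggttgtA
AG added: tggcagtgtcttagctggttgtAG
last base A: tggcagtgtcttagctggttgA
Tags with T alone added made up 43.7% in involution (121 of 277, 37.8 to 49.7%) and 22.8% in lactation (45 of 197, 17.2 to 29.3%). Tags with A alone added made up 9.39% in involution (26 tags, 6.22 to 13.5%) and 3.55% in lactation (7 tags, 1.44 to 7.18%), with overlapping intervals. The form with AG added went the other way, at 0.361% in involution (1 tag, 0.00914 to 1.99%) and 18.3% in lactation (36 tags, 13.1 to 24.4%). Together with its longer versions, AG stood at the first added positions of 1 tag in involution and 42 in lactation. The form with A as last base had 2 tags in involution (0.722%) and 13 in lactation (6.60%).

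The AG form was set beside those of other miRNAs, a comparison chosen after its values had been seen. Among 40 other miRNAs recognised by their start, with at least 100 tags in each library, the share of tags with AG added had a median of 0.00865% in involution and 0.00882% in lactation. The highest values were those of miR-429, at 7.996% in involution and 10.5% in lactation. Next in lactation was miR-214, at 0.0779% in involution and 4.43% in lactation. No sequence of the goat precursors was used, so it is not known here which added bases continue the precursor. The 36 reads are copies of 1 sequence, and how many molecules they represent was not tested. Without that form the ratio of miR-34a was 4.16 (3.42 to 5.08).

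Both main members were set against all tag groups of the libraries. Tags were grouped by their first 18 bases, without names, and 1444 groups reached 10 TPM in a library. A group or miRNA is called higher or lower where its ratio is at least 2 or at most 0.5 and its whole interval lies beyond 1. Of the 1444 groups 39.3% were called higher in involution and 8.03% lower. The members that reached 10 TPM were miR-34a, called higher, and miR-34c, called lower; miR-34b passed the ratio on 7 tags in involution and 2 in lactation but lay under that level, and miR-449a was not called. With median-of-ratios factors 418 groups were called higher (28.9%) and 263 lower (18.2%), and with TMM factors 420 higher and 260 lower. A call in the direction of miR-34a was thus common in these libraries, and how much rarer one in the direction of miR-34c was depended on the scaling. The median log2 ratio of the groups with tags in both libraries was 0.54, with quartiles of -0.24 and 1.60, beside 1.78 for miR-34a and -1.38 for miR-34c. Relative to that median the log2 ratios of miR-34a and miR-34c were 1.24 and -1.92. The median-of-ratios factor is this same median, so its ratios below restate these values. Scaling by median-of-ratios or TMM factors, which shifts all log2 ratios by -0.54 or -0.53, left both calls in place, at ratios of 2.36 and 2.38 for miR-34a and 0.264 and 0.266 for miR-34c.

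**Figure D4:**
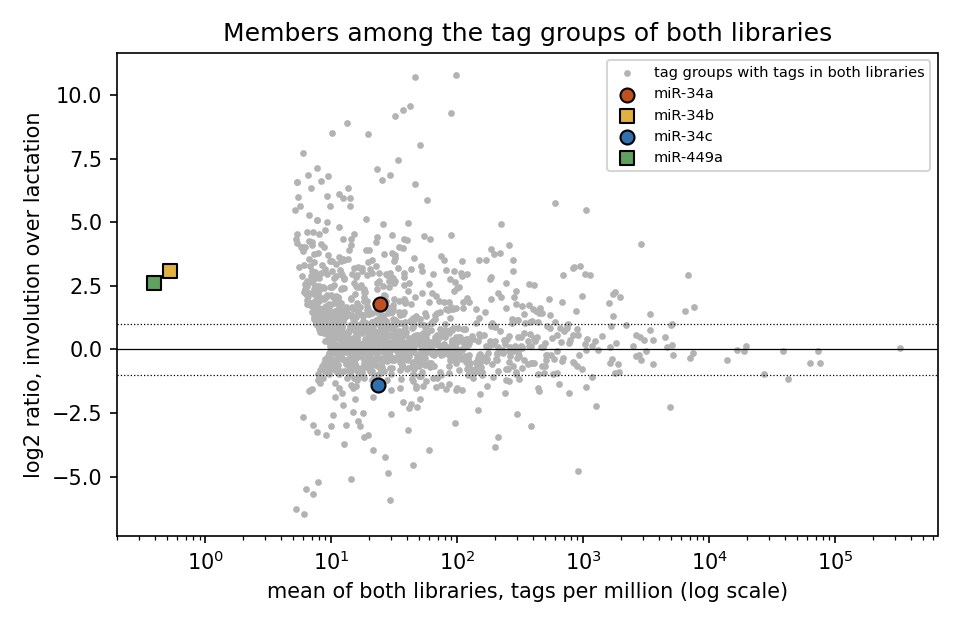
The log2 ratio of involution over lactation against the mean level of both libraries in TPM on a log axis; grey points are tag groups that reached 10 TPM in a library and have tags in both, and dotted lines mark 2-fold. Coloured points show miR-34a at 1.78 and miR-34c at -1.38, at similar mean levels, and miR-34b and miR-449a at the low end.

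Among 41 recognised miRNAs with at least 100 tags in each library, those with the log2 ratio closest to the 1.78 of miR-34a were miR-142-5p at 1.76, miR-142-3p at 1.75 and miR-26a at 1.66. This likeness rests on 2 libraries and describes them alone. The interval of the miR-34a ratio, 2.84 to 4.13, also held the ratios of miR-17 (3.84) and miR-20a (2.95). Which miRNA is closest is therefore not resolved, and only miRNAs of the lists used here were compared. The involution library had 96 tags of miR-34c, too few for the same comparison.

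The 6 miRNAs of the miR-17 cluster, which is known to promote proliferation, are given beside the family. Of them 5 were called higher, 0 lower and 1 was not called, where 39.3% of all tag groups were called higher and 8.03% lower, with a median log2 ratio of 2.45 beside 0.54 over all tag groups. The count was the same with factors from median-of-ratios or TMM. As members of 1 cluster these 6 miRNAs are not independent of each other, so the count does not stand for 6 separate results. The highest ratio was that of miR-19b, at 468 TPM in involution and 27.1 in lactation, 17.3 times higher (15.7 to 19.1). The ratios of miR-19a, miR-18a, miR-17 and miR-20a were 12.6, 7.75, 3.84 and 2.95. The most abundant of the cluster, miR-92a, had 957 TPM in involution and 643 in lactation.

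Marker miRNAs of the cell types in the gland are given beside the share of all tag groups called higher, 39.3%, and lower, 8.03%. The epithelial list had 3 of 8 called higher and 0 lower, at a summed level of 26690 TPM in involution and 21125 in lactation. Those called higher were miR-375, at 5295 in involution and 280 in lactation, miR-205 and miR-141. Their ratios were 18.9, 5.67 and 2.63. The most abundant, miR-200c, went the other way, at 11551 in involution and 15441 in lactation, a ratio of 0.748. Ratios of miR-429 and miR-203 were also below 1, at 0.723 and 0.589, and those of miR-200a and miR-200b were 1.48 and 1.27. By median-of-ratios scaling 2 of the epithelial list were called higher and 2 lower, and by TMM scaling 2 higher and 1 lower. The stromal list, which holds miR-143 and miR-145, had 2 of 5 higher, at 334646 in involution and 322810 in lactation. Most of that sum was miR-143, at 329528 in involution and 317935 in lactation, a ratio of 1.04. Those called higher were miR-145 and miR-214, at ratios of 9.42 and 9.96. The ratio of miR-199a-3p was 1.39 and that of miR-10b 0.664, and miR-10b was called lower with either set of factors. The endothelial pair had 1 of 2 higher, at 7394 in involution and 7750 in lactation. Its ratios differed in direction, at 0.794 for miR-126-3p and 4.23 for miR-126-5p. The skeletal muscle list had 1 of 3 higher, at 1493 in involution and 1912 in lactation, and miR-206 was called lower with either set of factors. The counts of these 4 lists lie near the share of all tag groups. The leukocyte list had 5 of 6 higher, at 1772 in involution and 1446 in lactation. The other member, miR-155, had 702 in involution and 1211 in lactation, a ratio of 0.580, and was called lower with either set of factors. The erythroid list had 2 of 3 higher, at 3085 in involution and 927 in lactation. Most of that sum was miR-451, at 2736 in involution and 597 in lactation. The member not called, miR-486, had 275 in involution and 328 in lactation, a ratio of 0.838. The miRNA of the lactating gland, miR-148a, had 25634 in involution and 57079 in lactation, and the liver miRNA miR-122 had 5.55 in involution and 1.11 in lactation. Their part in the values of miR-34a and miR-34c was not tested.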

How the data were processed

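The deposited files hold raw counts of distinct clean tags. A deposited text lists the authors' steps: strict quality filtering, 3′ adaptor trimming, and removal of reads with 5′ adaptor, of polyA and of inserts shorter than 18 nt. RNA of 18 to 30 nt was selected, per the labels' protocols; tags reached 44 nt. Tools and mapping: not given in the sources used here. Filtering logs were tied to libraries by equal clean totals.

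No miRNA table or goat genome was used. Each of 58 miRNAs was recognised by its first 14 to 19 bases, written from general knowledge; sequences printed were read from the tags. The starts of miR-34a-3p and miR-449c were adapted to the tags after these had been seen. Ambiguous tags, matching several miRNAs, were left out (0.00509% in involution, 0.00896% in lactation). Tag groups absorbed starts shifted by 1 or 2 bases and single substitutions at up to 2% of the parent. Members and lists were chosen with earlier results of these data known.

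Named miRNAs are the members, their 3p arms, miR-449b, miR-449c, of the miR-17 cluster the 3 most abundant and any called, and the 3 with the closest log2 ratio. Values were already known when miR-148a, miR-122, miR-155, miR-206, the epithelial, stromal, endothelial and erythroid miRNAs and the end forms were added to these. Other pathway lists are not reported here. Alternatives covered scaling, assignment, length and filter. The ratio, interval and call were tested on simulated independent Poisson counts, the model that the intervals assume. That check of the code does not cover PCR copies or the spread between goats. Calculations used Python 3.11.15, numpy 2.4.6, scipy 1.17.1, matplotlib 3.10.9, R 4.3.3 and, for TMM factors, edgeR 4.0.16.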

Additional observations from a re-analysis of the deposited data

How the results depend on the processing

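The ratios of miR-34a and miR-34c kept their direction and their call in every alternative run. For miR-34a the ratio moved to 2.36 by median-of-ratios scaling and 2.38 by TMM scaling, to 4.14 with identical tags, to 5.96 with tags of 23 nt and to 4.16 without the AG form. For miR-34c it moved to 0.264 and 0.266 by the same scalings. The sum of the 4 members had 0.799 and 0.806 by them, 0.721 with identical tags and 0.768 with tags of 23 nt, all below 1. The share of miR-34a moved, with identical tags, to 49.7% in involution and 8.66% in lactation, and with tags of 23 nt to 51.7% in involution and 6.67% in lactation. That of miR-34c moved to 46.6% in involution and 91.2% in lactation with identical tags, and to 44.3% in involution and 93.2% in lactation with tags of 23 nt. The remaining alternatives left these shares within their intervals. The ratio of miR-34b ran from 5.88 to 17.1 and could not be computed with identical tags, of which lactation had 0. That of miR-449a ran from 2.44 to 6.26, passed the call at 6.21 without miR-143 in the total and at 6.26 with tags of 20 to 24 nt as the total, and had no value for tags of 23 nt. Of tag groups, 2917 were higher and 538 lower with a filter of 1 TPM, 109 higher and 34 lower with 100, and 263 and 260 were lower after scaling by median-of-ratios or TMM, against 568 higher and 116 lower at 10. Scaling over tag groups and recognised miRNAs replaced the planned scaling over a table of known miRNAs, and that choice, the 20 to 24 nt total, the 23 nt tags and the removal of the AG form were added after seeing the data. No paired analysis was possible because each stage has 1 library. Depth limits miR-34b, miR-449a and the 3p arms, whose counts are under 10.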

Other observations

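A few tags held the first 18 bases of a member but fell outside the counting rule. In involution 4 tags of miR-34a began 1 base earlier and 4 were over 3 nt longer. In lactation 1 tag each of miR-34a and miR-34c began 1 base earlier. Joined tags, in which a member and another miRNA stand in 1 read, were found in lactation alone, 1 for each of 3 members: a 44 nt tag with miR-23b before miR-34a, a 42 nt tag with miR-23b before miR-449a, and a 41 nt tag with part of miR-16 after miR-34c. The lactation library was 2.44 times deeper, so 0 in involution is not shown to differ.

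By the starts searched, the 3p arms of miR-34a and miR-34c together had tags in the shallower library only. These were 6 for miR-34a and 2 for miR-34c in involution, and 0 for each in lactation. For miR-34a the start had been adapted to the tags, and tags that began earlier were not counted. The interval of the ratio for the 3p arm of miR-34c includes 1, so no direction is shown for it.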
